A study of Saccharomyces cerevisiae with 236 samples.

Results

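The strains described here each lack 1 protein of the small subunit of the mitochondrial ribosome of Saccharomyces cerevisiae. They were chosen by name, as the deletions of 31 genes that encode structural proteins of this subunit, a rule that uses no measured value, although the list was drawn up with earlier results of these data known. Of the 31 genes, 28 were in the barcode table, with 1 strain and 2 tags each, out of 4993 genes and 5179 strains in all. They were MRP1 (YDR347W), MRP10 (YDL045W-A), MRP13 (YGR084C), MRP17 (YKL003C), MRP2 (YPR166C), MRP21 (YBL090W), MRP4 (YHL004W), MRP51 (YPL118W), MRPS12 (YNR036C), MRPS16 (YPL013C), MRPS17 (YMR188C), MRPS28 (YDR337W), MRPS35 (YGR165W), MRPS5 (YBR251W), MRPS8 (YMR158W), MRPS9 (YBR146W), PET123 (YOR158W), RSM18 (YER050C), RSM19 (YNR037C), RSM22 (YKL155C), RSM23 (YGL129C), RSM24 (YDR175C), RSM25 (YIL093C), RSM26 (YJR101W), RSM27 (YGR215W), RSM28 (YDR494W), RSM7 (YJR113C) and SWS2 (YNL081C). MRPS18 (YNL306W), RSM10 (YDR041W) and NAM9 (YNL137C) were not analysed here. They were grown in 3 pooled deletion collections, in which a gene's deletion carries the same barcodes. YKO_aux_ is the homozygous diploid collection in BY4743, a MATa/α strain homozygous for his3Δ1, leu2Δ0 and ura3Δ0 and heterozygous for lys2Δ0 and met17Δ0, so that every strain, controls included, needs added histidine, leucine and uracil. PB_prot_ is the haploid BY4741 collection, MATa his3Δ1 leu2Δ0 met17Δ0 ura3Δ0, made prototrophic by pHLUM, a single-copy ARS-CEN plasmid with HIS3, LEU2, URA3 and MET17. BC_prot_ is a haploid MATa collection with can1Δ::STE2pr-SpHIS5 his3Δ1 lyp1Δ0, obtained by backcrossing and by selecting segregants that grew on minimal medium. In each collection a deletion was represented by 1 strain, so a property of that isolate and the effect of its deletion cannot be told apart.

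The mitochondrial ribosome translates the few proteins that mitochondrial DNA encodes, which are core subunits of the respiratory complexes III and IV and of ATP synthase, together with Var1, itself a protein of the small subunit. In yeast, loss of mitochondrial translation ends respiration and leaves the mitochondrial genome unstable, so that cells become petites that ferment glucose but cannot use glycerol. The small subunit binds the messenger RNA and decodes it. It holds proteins with bacterial counterparts, such as RSM19 (bacterial S19), MRPS17 (S17) and RSM18 (S18), and proteins that bacteria lack, such as PET123, MRP13, RSM22 and the mutually related MRP1 and RSM26.

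The table held log2 intensities of 10198 tags on 236 Affymetrix arrays. A tag's level reports the abundance of its strain within the pool after 5 generations of growth, relative to the other strains, and no read count or depth exists for these arrays, whose number therefore limits the precision. All pools were grown in rich medium with glucose (YPD), in YPD with 2% DMSO, in rich medium with 3% glycerol (YPG), in CCCP (32 µM) and FCCP (6 µM), which carry protons across the inner mitochondrial membrane and collapse its potential, in cisplatin (200 µM), which crosslinks DNA, and in a quinolone (125 µM). They were also grown in synthetic complete medium (SC), in SC without 1 nutrient and in minimal medium (MM). MM of YKO_aux_ was supplemented, per the labels, with histidine (20 mg/l), leucine (60 mg/l), lysine (30 mg/l), methionine (20 mg/l) and uracil (20 mg/l); the study's own description of this medium has less leucine and no lysine. The groups held 1 to 9 arrays. In the comparisons that matter most here, YPD had 8 (YKO_aux_), 9 (PB_prot_) and 9 (BC_prot_) arrays, YPD with DMSO 9, 8 and 7, YPG 2, 4 and 4, and CCCP and FCCP 3 each. The study's methods speak of biological replicates from independent experiments, whereas the labels do not say which arrays of a group came from separate cultures, so part of the spread between arrays that the p-values measure may be technical. Of the 236 arrays, 2 of BC_prot_ were left out, since their titles and growth protocols named different media.

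Some arrays carried signal from tags whose strains were found only in another pool. Over tags that were absent from a collection in SC and before growth but present in another collection (441 tags for YKO_aux_, 595 for PB_prot_ and 853 for BC_prot_, members excluded), the median level exceeded that of 744 tags absent from all 3 collections by more than 1 log2 unit on 60 arrays (35 of synthetic media, 25 of rich media and 0 of the 15 taken before growth). In YKO_aux_ this excess was 3.36 and 3.19 log2 units on both YPG arrays, and 2.04, 3.61, 2.97 and 3.12 on YPD replicates 1, 6, 7 and 8. It was 2.71 on 1 of 9 YPD arrays with DMSO of this collection (replicate 9). On the CCCP and FCCP arrays it lay between -0.08 and 0.13 in all 3 collections. In YPG it reached 1.45 in PB_prot_ and 1.18 in BC_prot_. Where a member's tag can also be borne by the strain of another pool, its level on such an array is not that of its own pool alone. The part of this signal in the results below was not tested, and calls of members that rest on these arrays are given with and without them where any array was left. In YKO_aux_, YPD replicate 8 also had the lowest median over the tested members of any YPD array, 8.31 against a highest of 9.98. RSM18, found in YKO_aux_ alone, stood at 8.91, 9.07 and 7.24 on YPD replicates 6, 7 and 8. On replicates 2 to 5 it stood at 9.55 to 10.09, and on replicate 1 at 9.60. MRPS17 had 9.08, 9.06 and 8.38 against 9.52 to 9.98, and 9.97 on replicate 1. MRP13, held by all 3 pools, had 10.73, 10.93 and 11.54 against 10.94 to 11.13. Whether lower readings of this kind raise the YPG scores of YKO_aux_ was not tested.

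**Figure D1:**
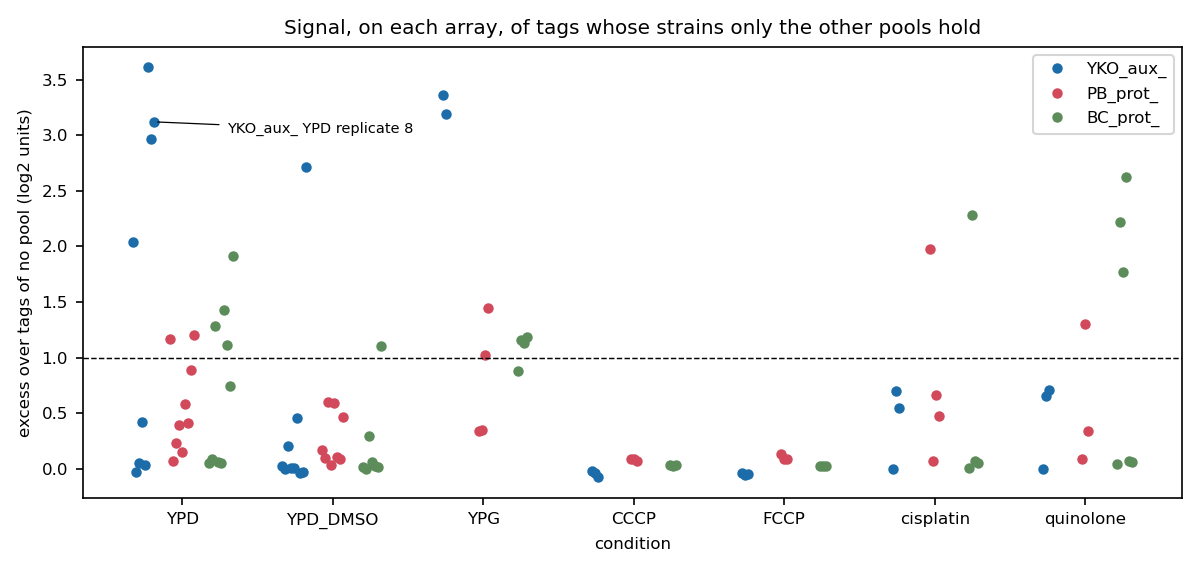
Excess, on each array of the rich-medium sets (points, coloured by collection), of the median level of tags whose strains only other pools hold over the median level of tags of no pool, in log2 units, by condition. The dashed line is at 1; both YPG arrays of YKO_aux_ lay above 3, and no CCCP or FCCP array lay above 0.13.

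Whether a member was present in a pool was read from its tags. In each set of arrays (a collection in rich or in synthetic media), the tags on the control arrays were modelled as a mixture of a dim and a bright normal distribution, and a strain was tested if at least 1 tag lay above the point of equal probability on every control array. In SC the dim and the bright mean were 5.88 and 9.57 in YKO_aux_, 6.14 and 9.72 in PB_prot_, and 5.58 and 9.55 in BC_prot_, with thresholds of 7.40, 7.98 and 7.34. In SC, 20 of 28 members (71.4%) passed in YKO_aux_, 17 (60.7%) in PB_prot_ and 3 (10.7%) in BC_prot_. Over all strains the shares were 84.2%, 79.5% and 77.3%. Under the rule of the study's methods as applied here, in which every tag of a strain has to pass, 13, 6 and 1 members were present (of 3162, 2200 and 2430 strains). The study itself reports more strains present in SC in each collection, so these counts do not reproduce its roster. MRP13, MRP51 (a distant counterpart of bacterial S1) and RSM28 were the members that passed in all 3 pools. For the large subunit, 32, 29 and 7 strains passed.

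YKO_aux_ and PB_prot_ shared 12 members in SC. A further 8 passed in YKO_aux_ alone, namely MRP2, MRPS5, MRPS9, MRPS17, MRPS28, RSM7, RSM18 and SWS2 (a counterpart of bacterial S13), and 5 in PB_prot_ alone, namely MRP4, MRP17, MRP21, MRPS8 and RSM24. MRP10, MRPS12 and RSM26 passed in none. The tags of MRPS12, a counterpart of the decoding-site protein S12, had means between 4.77 and 5.34 in SC, within the dim population of every pool. RSM26 had a downtag near the threshold in all pools, with means of 7.24 (YKO_aux_), 7.42 (PB_prot_) and 7.75 (BC_prot_), and MRP10 had one at 7.68 in YKO_aux_, above the threshold on 2 of 4 arrays. As an example of the members that did not pass in BC_prot_, PET123 had means of 6.34 and 6.20 at its tags over 16 control arrays in rich medium, where MRP13 had 10.96 and 10.12.

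**Figure D2:**
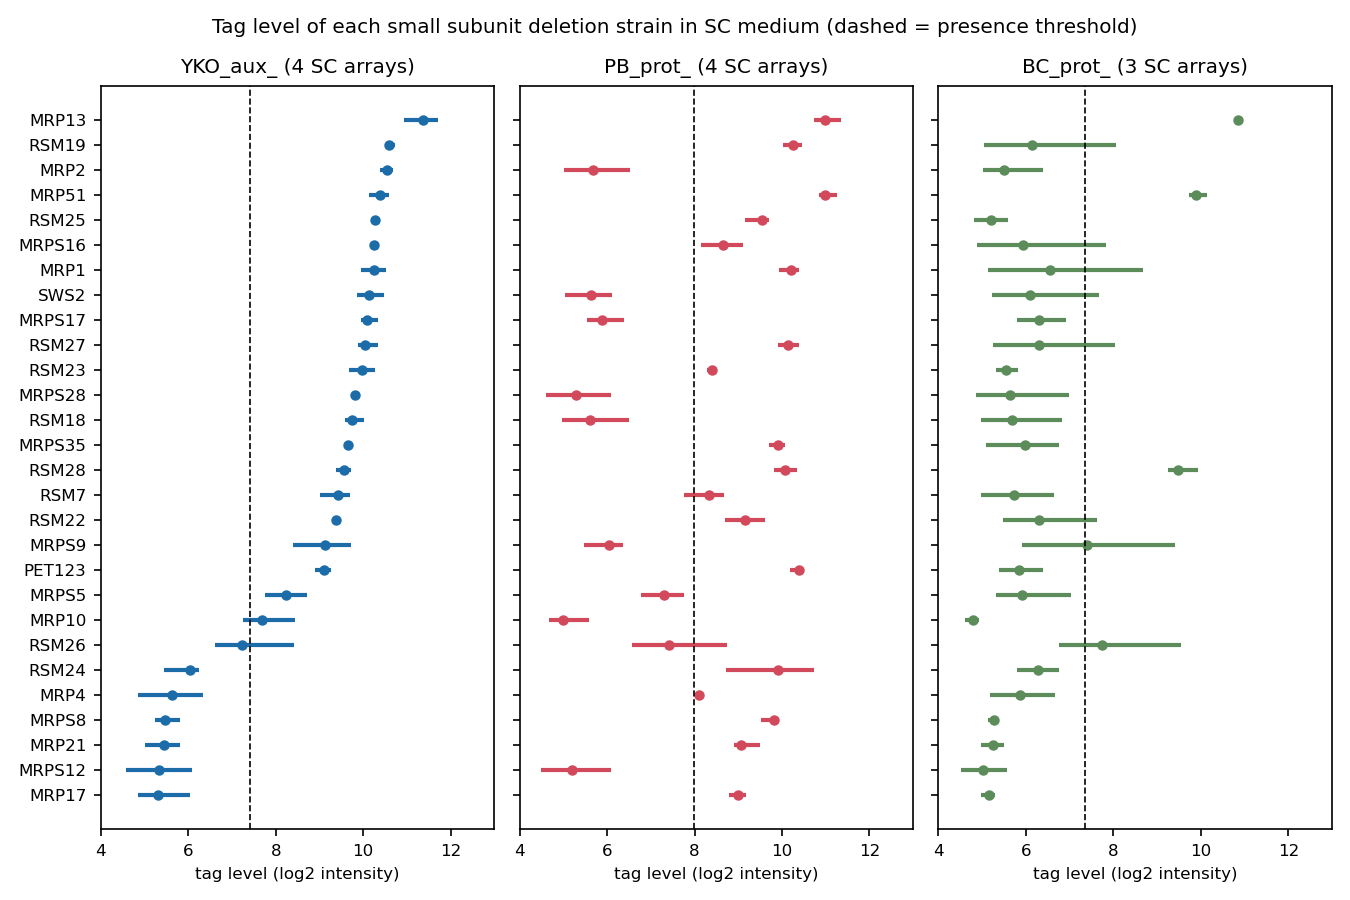
Tag level of each of the 28 members in SC (log2 intensity, point = mean, bar = lowest to highest array) in YKO_aux_ (4 arrays), PB_prot_ (4) and BC_prot_ (3), for the tag used or, where none passed, the brighter tag; the dashed line is the presence threshold. In BC_prot_, MRP13, RSM28 and MRP51 lay entirely above it.

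In the rich-medium sets, 12 members were tested in YKO_aux_ (of 3928 strains), 14 in PB_prot_ (of 4015) and 3 in BC_prot_ (of 3840). The fall from 20 to 12 in YKO_aux_ turned on YPD replicate 8: without it 19 members were tested. The 10 members that were tested in rich medium in no pool were MRP2, MRP4, MRP10, MRPS5, MRPS12, MRPS28, RSM7, RSM23, RSM24 and RSM26. Growth is given as a fitness defect (FD) score, the median level on the control arrays minus the level on a treatment array, in log2 units, so that a positive score means fewer cells of the strain under treatment; the median over treatment arrays is given ± SD. A strain was called lower where the FD score was at least 1 and the Benjamini-Hochberg adjusted p of limma, fitted to all arrays of the set and adjusted over all strains tested, was under 0.05.

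On glycerol, the carbon source that only respiring cells can use, 7 of 12 members of YKO_aux_, 11 of 14 of PB_prot_ and 0 of 3 of BC_prot_ were called lower. Over all strains tested, 2.62%, 4.83% and 0.859% were called lower. The median FD score of the members was 1.23, 1.77 and 0.25 against 0.02, -0.03 and 0.11 over all strains. No member was called higher in YPG in any collection.

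In YKO_aux_, RSM18 had levels from 7.24 to 10.09 on the 8 YPD arrays (median 9.58) and 6.99 and 6.11 in YPG, an FD score of 3.03 ± 0.62 (n = 2, limma adjusted p = 1.04e-05). SWS2 went from 7.32 to 10.03 in YPD (median 9.61) to 6.22 and 7.19, with a score of 2.91 ± 0.69. MRPS17 went from 8.38 to 9.98 (median 9.65) to 6.56 and 6.95, with a score of 2.90 ± 0.28. All 3 are counterparts of bacterial proteins, both YPG arrays lay below every YPD array, and their YPG means were below the presence threshold of 7.16, where a tag no longer measures how far a strain fell. RSM19 had 8.38 to 10.54 in YPD (median 10.41) and 8.26 and 8.38 in YPG, with a score of 2.08 ± 0.09, and met its lowest YPD array, replicate 8. MRP1 had 8.21 to 10.50 in YPD (median 9.97) and 8.16 and 8.07 in YPG, with a score of 1.86 ± 0.06. RSM27 (1.26 ± 0.30, adjusted p = 0.0245) and RSM25 (1.20 ± 0.18, adjusted p = 6.27e-05), both subunits that bacteria lack, were the other members called. RSM27 lost its call when either YPG array was left out, and RSM19 without replicate 1.

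Of the 5 members of YKO_aux_ not called in YPG, PET123, a subunit needed for mitochondrial translation, came nearest, with 7.50 to 9.22 in YPD (median 8.35), 7.79 and 7.43 in YPG and a score of 0.74 ± 0.26. MRP51 had 9.14 to 10.79 in YPD (median 10.08) and 9.86 and 9.84 in YPG, a score of 0.23 ± 0.02. Both YPG arrays thus lay within the YPD range. MRP13 had 10.73 to 11.54 in YPD (median 11.02) and 10.51 and 10.74 in YPG (0.39 ± 0.16), RSM28 8.75 to 9.48 (median 9.11) and 8.88 and 9.13 (0.10 ± 0.17), and MRPS9, the counterpart of bacterial S9, 7.45 to 9.19 (median 8.57) and 7.88 and 8.21 (0.53 ± 0.23). The adjusted p of these 5 members lay at or above 0.224. Both YPG arrays are among those with signal of other pools, so no YPG value without such arrays exists for YKO_aux_. Without YPD replicate 8, 15 of 19 members were called, adding MRP2, MRPS16, MRPS28, MRPS35, PET123, RSM7, RSM22 and RSM23, and MRP13, MRP51, MRPS9 and RSM28 stayed uncalled. PET123 then had a score of 1.91 ± 0.37 (adjusted p = 4.1e-05), read from its downtag in place of the uptag.

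In PB_prot_, PET123 had the largest score in YPG. Its level was 9.67 to 10.58 in YPD (9 arrays, median 10.11) and 7.67, 7.40, 7.46 and 7.98 in YPG, a score of 2.55 ± 0.26 (n = 4, limma adjusted p = 5.73e-13). MRPS8, the counterpart of bacterial S8, went from 8.54 to 9.62 (median 9.07) to 6.94, 7.45, 6.07 and 6.32, with a score of 2.44 ± 0.62. For both, every YPG array lay below every YPD array. MRP21, the counterpart of S21, went from 8.14 to 9.44 (median 8.67) to 6.79, 6.86, 6.07 and 6.03 (2.24 ± 0.45), and MRPS35 from 8.98 to 9.92 (median 9.57) to 7.64, 7.73, 7.46 and 6.90 (2.02 ± 0.37). MRP1 had 9.43 to 10.55 in YPD (median 9.81) and 8.56, 8.17, 7.62 and 6.65 in YPG (1.91 ± 0.83). The other 6 called members were MRP17 (1.86), RSM22 (1.78), RSM19 (1.76), RSM27 (1.55), MRPS16 (1.52) and MRP51 (1.31). RSM19 overlapped its controls, through a YPG array at 9.25. In 7 of the 14 members the YPG mean lay below the presence threshold of 7.73.

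The 3 members of PB_prot_ not called in YPG differed among themselves. RSM28 had 9.65 to 10.24 in YPD (median 9.88) and 9.40, 9.42, 9.22 and 9.15 in YPG, a score of 0.56 ± 0.13, short of 1 although every YPG array lay below every YPD array (adjusted p = 0.00131). MRP13 had 10.87 to 11.22 in YPD (median 11.01) and 10.90, 10.85, 11.01 and 11.16 in YPG (0.06 ± 0.14). RSM25 had 8.62 to 9.51 in YPD (median 9.11) and 9.47, 8.79, 9.58 and 9.24 in YPG (-0.25 ± 0.35). Without the arrays with signal of other pools, 12 of 15 members were called in YPG, the added one being RSM24. In BC_prot_, MRP51 had 9.64 to 10.64 in YPD (9 arrays, median 10.19) and 10.30, 10.06, 9.18 and 9.58 in YPG (0.37 ± 0.50). MRP13 had 10.72 to 11.17 in YPD (median 10.96) and 10.72, 10.49, 10.72 and 10.69 in YPG (0.25 ± 0.11), every YPG array below every YPD array, and RSM28 9.41 to 9.99 (median 9.62) and 9.78, 9.62, 9.74 and 9.91 (-0.14 ± 0.12). The adjusted p of these 3 lay between 0.172 and 0.638. Of the 4 YPG arrays of BC_prot_, 3 carried signal of other pools, and on the array left without them the scores of MRP51, MRP13 and RSM28 were -0.16, 0.24 and -0.08.

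In CCCP, compared with YPD with DMSO, 9 of 12 members of YKO_aux_ were called lower (2.85% of all strains), 11 of 14 in PB_prot_ (4.16%) and 0 of 3 in BC_prot_ (0.625%), and none higher. The median FD score of the members was 2.33, 2.17 and 0.08, against -0.01, -0.05 and 0.03 over all strains. CCCP, FCCP and the quinolone share their control arrays, as YPG and cisplatin share theirs.

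In YKO_aux_ RSM25 had 9.62 to 10.29 on the 9 YPD arrays with DMSO (median 9.82) and 7.22, 6.87 and 6.90 in CCCP, a score of 2.92 ± 0.19 (n = 3, limma adjusted p = 4.71e-13). RSM19 had 10.11 to 11.05 (median 10.69) and 7.79, 8.02 and 7.76 (2.90 ± 0.14), and MRPS17 9.75 to 10.20 (median 9.9965) and 7.42, 6.98 and 7.15 (2.85 ± 0.22). In these strains CCCP and control arrays were more than 1 log2 unit apart. RSM18 had 9.72 to 10.01 (median 9.90) and 7.08, 7.78 and 6.63 (2.83 ± 0.58), and SWS2 9.28 to 9.96 (median 9.84) and 7.07, 7.67 and 7.01 (2.77 ± 0.37). PET123 (2.60), MRP1 (2.06), RSM27 (1.91) and MRP51 (1.79) were also called, each with every CCCP array below every control array.

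In PB_prot_ RSM22, a methyltransferase-like subunit, had 8.79 to 9.34 on the 8 YPD arrays with DMSO (median 9.12) and 5.94, 5.08 and 6.48 in CCCP, a score of 3.18 ± 0.71 (n = 3, limma adjusted p = 1.64e-10). PET123 had 9.83 to 10.76 (median 10.21) and 7.40, 7.71 and 6.79 (2.81 ± 0.47), and MRPS35 9.51 to 10.24 (median 9.72) and 6.92, 7.08 and 7.19 (2.64 ± 0.14). RSM27, at 9.66 to 10.06 (median 9.85) in the controls, had 6.56, 7.11 and 8.94 in CCCP (2.74 ± 1.25), so that 1 array fell far less than the other 2. RSM19 had 9.11 to 9.98 (median 9.52) and 6.97, 6.84 and 7.31 (2.55 ± 0.24). The other 6 called members, MRP1, MRPS8, MRP21, MRPS16, MRP17 and MRP51, had scores from 1.59 to 2.51. In 10 of the 14 members the CCCP mean was below the presence threshold, against 3 of 12 in YKO_aux_.

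In FCCP, 9 of 12 members of YKO_aux_ were called lower (2.32% of all strains), in PB_prot_ 10 of 14 (2.91%) and in BC_prot_ 0 of 3 (0.677%). The median FD score of the members was 1.57, 1.28 and 0.12, against -0.02, -0.02 and -0.0001 over all strains. The doses of the uncouplers differed (32 and 6 µM), so their values are set side by side and were not compared.

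Of the 5 largest scores in YKO_aux_, RSM19 had 8.06, 8.52 and 8.46 in FCCP (2.23 ± 0.25, n = 3), MRPS17 8.27, 7.78 and 7.41 (2.22 ± 0.43) and RSM18 7.75, 7.75 and 7.83 (2.15 ± 0.04), with the same control arrays as for CCCP. SWS2 had 8.63, 7.40 and 7.93 (1.91 ± 0.61) and RSM25 8.35, 7.89 and 8.05 (1.76 ± 0.24). All of these arrays lay below all control arrays, and no FCCP mean in this collection was below the presence threshold. In PB_prot_ RSM22 had 4.76, 5.82 and 7.09 (3.30 ± 1.17, n = 3, limma adjusted p = 1.04e-09), MRP17, the counterpart of bacterial S6, 6.89, 6.83 and 7.74 against 8.02 to 8.95 (median 8.79) in the controls (1.90 ± 0.51), and RSM27 7.09, 8.40 and 8.08 (1.77 ± 0.68). PET123 had 8.44, 8.61 and 8.90 (1.60 ± 0.23), and MRP1 8.63, 8.20 and 8.69 against 9.62 to 10.49 (median 10.19) in the controls (1.56 ± 0.27). The means of RSM22 (5.84 in CCCP, 5.89 in FCCP) lay below the presence threshold, as did those of MRP17, MRP21 and MRPS16 in FCCP (4 of 14 members), so their scores do not measure how far these strains fell. MRP51 in PB_prot_ stayed under the FD minimum in FCCP, at 9.58, 10.02 and 10.26 against 10.58 to 11.05 (median 10.89), a score of 0.87 ± 0.34 (adjusted p = 0.00106), and passed it without FCCP replicate 3. MRPS35, MRPS8 and MRPS16 fell under it without FCCP replicates 1, 2 and 3, in that order.

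**Figure D3:**
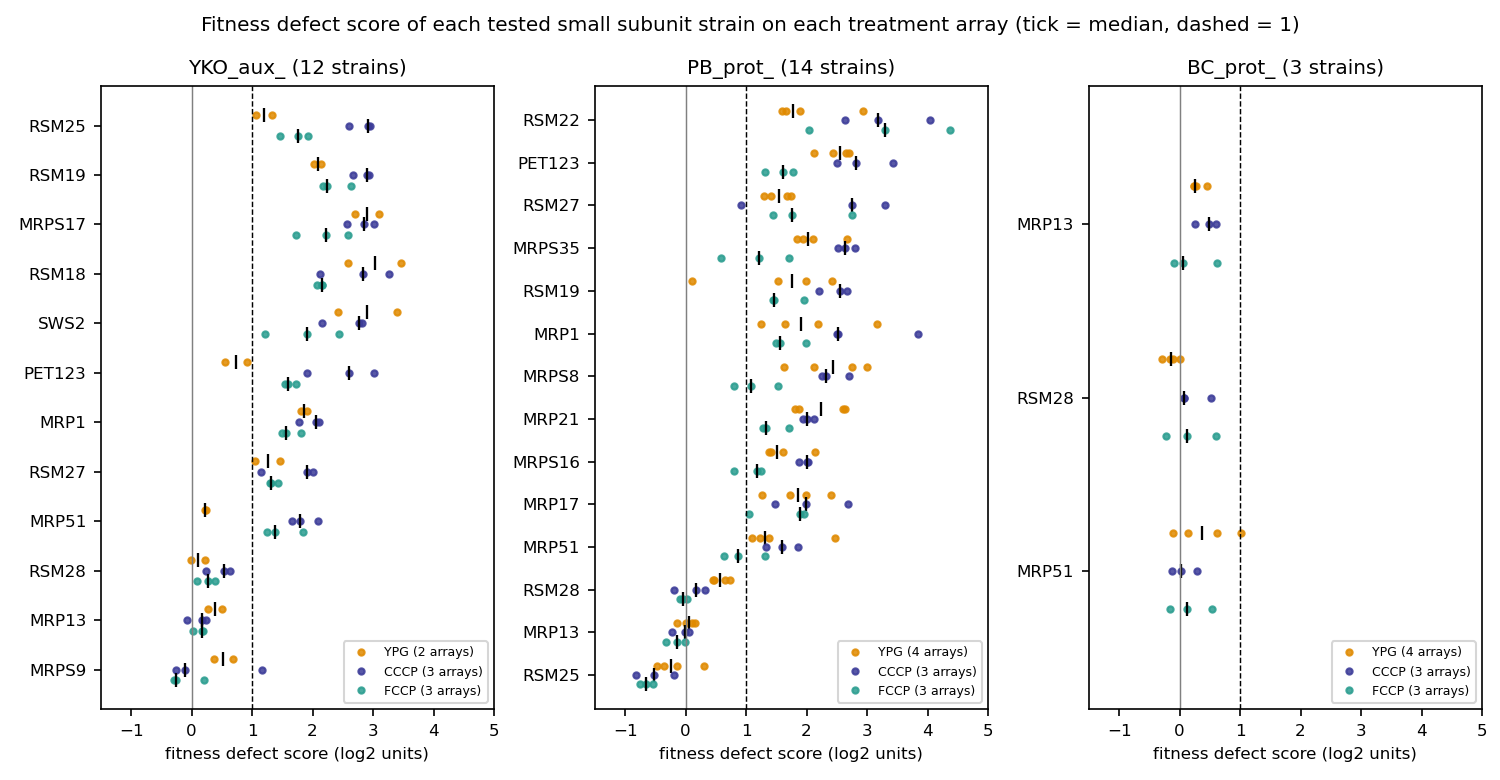
Fitness defect score (log2 units) of each tested member on each treatment array of YPG (orange), CCCP (blue) and FCCP (green), by collection; the tick is the median over arrays and the dashed line the minimum of 1 for a call. Scores reached 3.03 in YKO_aux_ and 3.30 in PB_prot_ (medians), RSM28 and MRP13 stayed under 1 everywhere, and no member of BC_prot_ had a median above 0.49.

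RSM28 and MRP13, both subunits that bacteria lack, were called in none of these 3 conditions in any collection. MRP13 was among the brightest of the members, and its scores lay between -0.14 (PB_prot_ in FCCP) and 0.49 (BC_prot_ in CCCP, arrays at 10.73, 10.50 and 10.38, all below the controls at 10.78 to 11.13, adjusted p = 0.317). RSM28 lay between -0.14 (BC_prot_ in YPG) and 0.56 (PB_prot_ in YPG). MRPS9, tested in YKO_aux_ alone, had scores of 0.53 in YPG, -0.12 in CCCP and -0.25 in FCCP, with CCCP arrays at 9.04, 8.90 and 7.63 within or just below the control range of 7.73 to 9.57. Its uptag was dim in SC (not above the threshold on any of 4 arrays), so these values rest on the downtag.

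Leaving out arrays changed the YKO_aux_ counts. The shares of all strains called with arrays left out are not given, here or for YPG above. Without every array with signal of other pools, 19 members were tested in YKO_aux_ and 16 were called in CCCP and 16 in FCCP, with median scores of 2.69 and 1.496. The 3 that were not called were again MRP13, MRPS9 and RSM28. Without YPD replicate 8 alone, 16 were called in CCCP and 15 in FCCP. The same removal in PB_prot_ gave 12 and 10 of 15 and in BC_prot_ 0 and 0 of 3. Under the stricter presence rule of the study's methods as applied here, in which every tag of a strain has to pass, 5 members could be tested in PB_prot_. Of these, 3 were called in each of YPG, CCCP and FCCP.

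Members that 2 collections share allow their responses to be compared, since each score is a difference within a collection. In YPG, 3 of the 8 members shared by YKO_aux_ and PB_prot_ differed (limma, adjusted over 3523 shared strains, of which 1.08% differed). The score of PET123 was higher in PB_prot_ by 1.71 log2 units (95% interval 1.04 to 2.39, adjusted p = 0.00093) and that of MRP51 by 1.37 (0.78 to 1.95, adjusted p = 0.00286), while that of RSM25 was lower (difference -1.48, interval -2.15 to -0.81, adjusted p = 0.0059). The YPG arrays of YKO_aux_ carry signal of other pools, with 2 arrays in the group, and each of these calls was lost without 1 of them. The difference of PET123 set the uptag in YKO_aux_ (score 0.74) against the downtag in PB_prot_ (2.55). At the downtag the scores were 1.78 and 2.55. The difference of PET123 also rested on 1 control array: without YPD replicate 8 of YKO_aux_, where the downtag was used, it was 0.69 (interval 0.01 to 1.37, adjusted p = 0.476), while RSM25 (-1.38, adjusted p = 0.0073) and MRP51 (1.48, adjusted p = 0.000279) kept their calls. With the mean of both tags the difference of PET123 was lost as well (adjusted p = 0.0778).

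In CCCP and FCCP, whose own arrays had no such signal, RSM25 was the member that differed between YKO_aux_ and PB_prot_ (1.65% and 0.766% of shared strains did). It was lowered in YKO_aux_ (scores of 2.92 and 1.76) and not in PB_prot_ (-0.52 ± 0.31 and -0.65 ± 0.10, arrays at 9.93, 9.63 and 9.31 in CCCP and 9.86, 9.66 and 9.77 in FCCP against 8.91 to 9.76 in the controls). The differences were -3.23 (interval -3.87 to -2.59, adjusted p = 7.75e-12) and -2.27 (-2.91 to -1.63, adjusted p = 2.23e-06). Both tags of RSM25 showed it, the downtag with scores of 2.89 in YKO_aux_ and 0.05 in PB_prot_ in CCCP. For the other 7 shared members the adjusted p in these conditions lay at or above 0.419, and their intervals reached from -1.36 (RSM19 in FCCP) to 1.76 (MRP1 in CCCP). The narrowest were those of MRP13, -0.56 to 0.12 in CCCP and -0.67 to 0.01 in FCCP. Without the control arrays with signal of other pools RSM22 was tested in both pools and its score in FCCP was higher in PB_prot_ (difference 2.15, interval 1.37 to 2.94, adjusted p = 0.00026). This setting was chosen after seeing the data. It sets the uptag in YKO_aux_ (score 1.25) against the downtag in PB_prot_ (3.30 ± 1.17, with its mean below the presence threshold).

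MRP51 was the member that set BC_prot_ apart. In BC_prot_ its CCCP arrays stood at 10.16, 9.89 and 10.31 against 9.49 to 10.52 in the controls (0.02 ± 0.22) and its FCCP arrays at 10.34, 9.64 and 10.05 (0.13 ± 0.35), whereas it was lowered by CCCP in both YKO_aux_ (8.21, 7.77 and 8.08 against 9.37 to 10.45, score 1.79) and PB_prot_ (9.04, 9.30 and 9.56 against 10.58 to 11.05, score 1.59). The difference in CCCP was -1.90 from YKO_aux_ (interval -2.51 to -1.29, adjusted p = 1.66e-05) and -1.62 from PB_prot_ (-2.20 to -1.03, adjusted p = 9.25e-05), where 0.648% and 0.985% of all shared strains differed. In FCCP it was -1.44 from YKO_aux_ (adjusted p = 0.00686, with 0.471% of shared strains differing), lost without YKO_aux_ replicate 3, without BC_prot_ replicate 1 and with the replicate number as a block, and -0.85 from PB_prot_ (adjusted p = 0.288, 0.619%). In YPG it was -1.14 from PB_prot_ (adjusted p = 0.00401, 2.56%), lost without PB_prot_ replicate 4, and 0.23 from YKO_aux_ (adjusted p = 0.942, 0.177%). RSM28 in YPG differed by -0.73 between BC_prot_ and PB_prot_ (adjusted p = 0.0498), a call that was lost without any 1 of the 8 YPG arrays or any 1 of 11 of the 18 YPD arrays. Without the arrays with signal of other pools, which left 1 YPG array in BC_prot_, both YPG differences from PB_prot_ were lost (MRP51 -1.21, adjusted p = 0.363, and RSM28 -0.43, adjusted p = 0.808), while the differences of RSM25 and MRP51 called in CCCP and FCCP kept their calls.

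**Figure D4:**
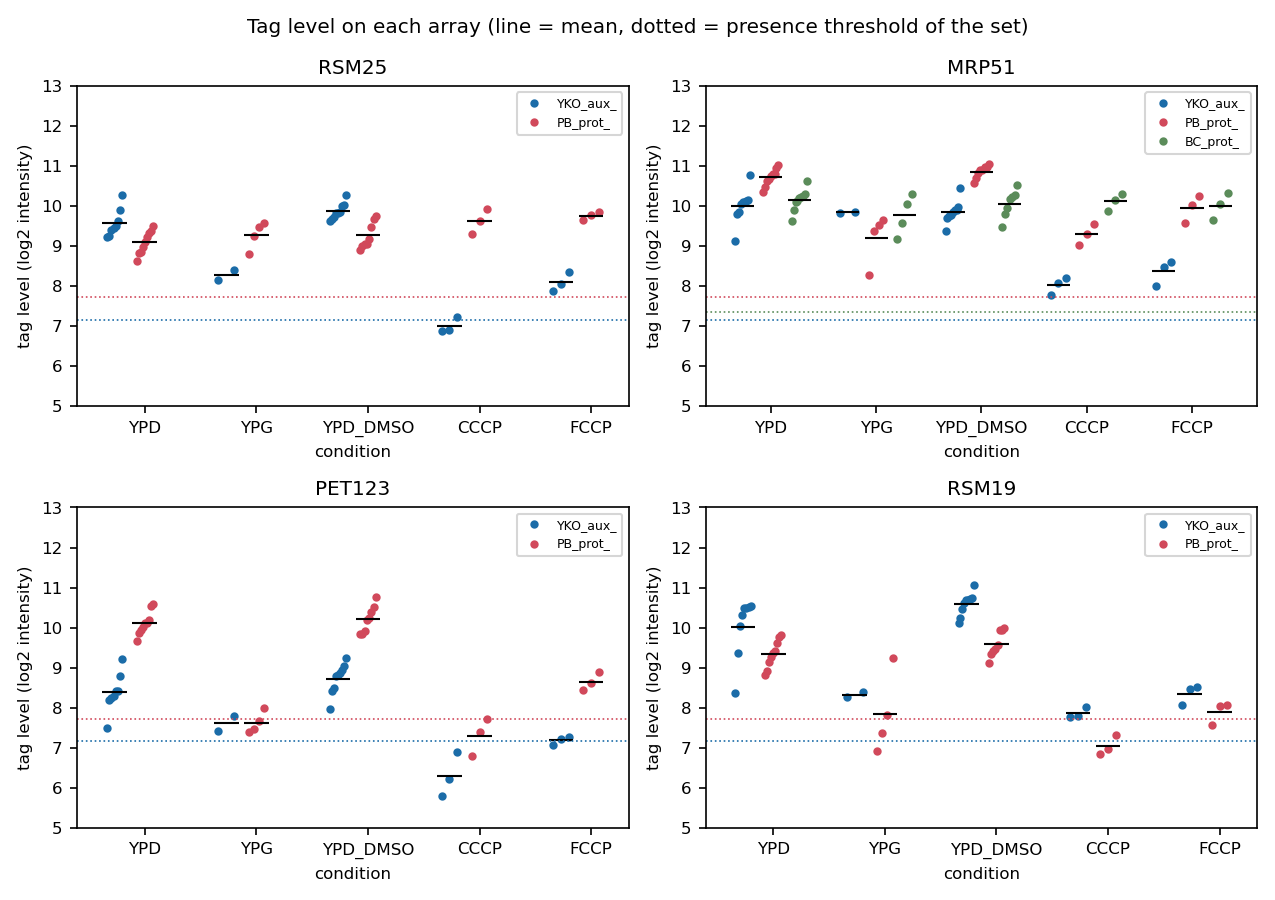
Tag level (log2 intensity) of RSM25, MRP51, PET123 and RSM19 on each array by condition, coloured by collection, with the mean as a line and the presence threshold of each set dotted. RSM25 fell in CCCP and FCCP in YKO_aux_ (scores of 2.92 and 1.76) and not in PB_prot_, MRP51 fell in CCCP in YKO_aux_ and PB_prot_ and not in BC_prot_, and RSM19 fell in both pools that held it.

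Where both tags of a member passed, they can be read against each other. In YKO_aux_ 7 members had both, and in CCCP 6 of the 7 had scores of at least 1 at both tags, with a median difference between tags of 0.08 and at most 0.39. In PB_prot_ 5 members had both, 3 of them with scores of at least 1 at both tags in CCCP. PET123 in YKO_aux_ had 2.68 at the downtag and 2.60 at the uptag in CCCP, but 1.78 and 0.74 in YPG, so that in YPG the uptag, which was used, lay below the FD minimum and the downtag above it. MRP1 had opposite signs in YPG, with 1.86 at the downtag and -0.82 at the uptag in YKO_aux_ and 1.91 and -0.45 in PB_prot_. In CCCP the same tags gave 2.06 and 1.67 in YKO_aux_ and 2.51 and 2.20 in PB_prot_. In BC_prot_, where MRP1 did not pass, its uptag averaged 9.53 over 4 YPG arrays (8.74 to 10.42) and 7.63 over 9 YPD arrays. The YPD arrays ran from 5.35 to 9.72 with a median of 8.59, so the groups overlapped. Signal of other pools was carried by 3 of these 4 YPG and 4 of these 9 YPD arrays. With the mean of both tags, MRP1 had YPG scores of 0.61 in YKO_aux_ and 0.73 in PB_prot_ and was called in neither.

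The counterparts of bacterial proteins and the subunits that bacteria lack overlapped in their scores. In YKO_aux_ in CCCP, 5 of 6 counterparts were called (median score 2.80) and 4 of 6 others (1.99). In PB_prot_ the figures were 6 of 6 (2.01) and 5 of 8 (2.58). In FCCP the medians were 2.03 and 1.43 in YKO_aux_ and 1.26 and 1.39 in PB_prot_. The order of the medians was thus opposite in the 2 pools in both uncouplers. Of the counterparts, however, only MRP51 and RSM19 were tested in both pools, so these medians rest largely on different strains. In YPG the counterparts had the higher median in both, 2.49 against 0.97 in YKO_aux_ (4 of 6 and 3 of 6 called) and 1.81 against 1.66 in PB_prot_ (6 of 6 and 5 of 8). No test was made between the classes.

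Strains of other genes of mitochondrial gene expression were called lower in the same conditions, most of them in YKO_aux_ and PB_prot_. Of the strains of the large subunit, 13 of 19 were called lower in YPG, 12 in CCCP and 12 in FCCP in YKO_aux_, and 20, 20 and 14 of 26 in PB_prot_, with median scores between 1.14 and 2.37. MRPL31 had the largest of them in YKO_aux_ (3.17 ± 0.17 in CCCP) and MRPL7 in PB_prot_ in CCCP (2.83 ± 0.27). Of the mitochondrial aminoacyl-tRNA synthetases, which charge the tRNAs that the ribosome reads, 5, 7 and 7 of 7 were called in YKO_aux_ and 8, 8 and 7 of 8 in PB_prot_. Of the translation factors, 3, 4 and 4 of 5 and 4, 4 and 4 of 6 were called, with MEF1, an elongation factor, at 2.65 and 3.40 in CCCP. In BC_prot_ 2 of 7 strains of the large subunit were called in YPG (MRPL39 at 1.14 ± 0.22 and MRP49 at 1.09 ± 0.63) and 0 in CCCP and FCCP, 0 of 1 of the synthetases in each, and 1 of 3 of the translation factors in CCCP (IFM1, an initiation factor, at 1.39 ± 0.42) and 0 in YPG and FCCP.

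Of the activators of single mitochondrial messages, 5 of 6 strains of YKO_aux_ were called in YPG, among them MSS51 (2.85 ± 0.27) and PET111 (2.41 ± 0.18), both needed to make subunits of cytochrome oxidase, and 1 of 6 in each of CCCP and FCCP, PET309 (2.57 ± 0.34 and 1.39 ± 0.22). In PB_prot_ 7 of 7 were called in YPG, 5 in CCCP and 0 in FCCP. The nuclear-encoded subunits of the respiratory chain and ATP synthase gave 2, 2 and 0 of 4 in YKO_aux_ and 8, 7 and 2 of 10 in PB_prot_, where ATP5 had 3.02 ± 0.30 in CCCP. In BC_prot_ they gave 2, 1 and 0 of 3, with COX5A (1.54 ± 0.25) and COX12 (1.21 ± 0.48) called in YPG and COX12 (1.26 ± 0.26) in CCCP, both subunits of cytochrome oxidase. Whether these lists differ from the small subunit was not tested. A protein found with the small subunit but not among the 31 genes, QRI5 (also named COX24), was called in PB_prot_ in YPG (1.79 ± 0.24), CCCP (2.13 ± 0.24) and FCCP (1.73 ± 0.27) and in BC_prot_ in YPG (1.53 ± 0.19), with scores of 0.70 and 0.38 in CCCP and FCCP there, and had 0.17, 0.52 and 0.27 in YKO_aux_. EHD3, the other such gene tested in rich medium, was called in no collection, with scores from -0.15 to 0.25.

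No member was called in the other treatments in rich medium. Few of all strains were called there either, so the absence of calls says little about the members. In cisplatin against YPD, 0 of 12, 0 of 14 and 0 of 3 members were called (0.993%, 1.32% and 1.54% of all strains were called lower), and limma's unadjusted p was under 0.05 for 7, 10 and 0 of them. The share of all strains at that unadjusted level is not given. The scores of the members were mostly below 0 in cisplatin, with medians of -0.39 in YKO_aux_ and -0.46 in PB_prot_ and lowest values of -0.63 and -0.79, none of which reached -1. Over all strains the medians were 0.02 and -0.08. They were -0.34 and -0.30 for the large subunit, -0.46 and -0.37 for the synthetases, and -0.06 and -0.24 for the respiratory chain list. In YKO_aux_, 4 of the 8 YPD arrays and none of the 3 cisplatin arrays carried signal of other pools. In the quinolone against YPD with DMSO the counts were again 0 of 12, 0 of 14 and 0 of 3 (0.153%, 0.0249% and 0.0521% over all strains; unadjusted p under 0.05 for 0, 1 and 0). DMSO alone, against YPD, gave 0 of 12, 0 of 14 and 0 of 3 (0.255%, 0.0249% and 0%; unadjusted p under 0.05 for 4, 1 and 0), with median scores of -0.22, -0.18 and 0.01.

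In SC-based media few scores passed the test. None of the 20 members of YKO_aux_ was called in any of 9 dropout media or MM, with scores between -0.59 and 0.71 over 200 tests, 12 of them with an unadjusted p under 0.05. Over all strains of YKO_aux_ the share called lower was 0% without glutamine, glycine or serine, 0.0458% without threonine, 0.115% without methionine, 0.16% without adenine, 0.298% without arginine, 0.39% without tryptophan, 0.413% without lysine and 1.17% in MM. None of the 3 members of BC_prot_ was called in 13 media, with scores between -0.51 and 0.21 and an unadjusted p under 0.05 in 0 of 39 tests (0.6% of all strains were called lower in MM, and in the dropout media 0%, 0.05%, 0.075% or 0.125%). In PB_prot_, over 17 members in 13 media, 3 tests gave a call, all 3 of them RSM28, and 23 had an unadjusted p under 0.05. In the 8 dropout media where the missing nutrient is not one of those the plasmid's genes make, 0% (glutamine, glycine), 0.0486% (serine, threonine), 0.121% (adenine), 0.243% (tryptophan) and 0.462% (arginine, lysine) of all strains were called lower.

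RSM28, whose product was first known through a suppressor mutation in mitochondrial translation, had 10.06 on average on the SC arrays of PB_prot_. Its scores in MM were 4.56, 2.71, 2.07 and 1.23 on the 4 arrays (2.39 ± 1.42, n = 4, limma adjusted p = 3.03e-06), against 4.59% of all strains called lower in MM. Without leucine they were 2.54, 2.27 and 0.88 (2.27 ± 0.89, limma adjusted p = 0.00258, 2.70% of all strains), and without uracil 1.49, 2.47 and 1.60 (1.60 ± 0.54, adjusted p = 0.00462, 2.24%). Every one of these arrays was thus lower than the SC median. Without histidine the scores were 1.08, 1.86 and 1.09 (1.09 ± 0.45), past the FD minimum but not the test (adjusted p = 0.0591, 2.16% of all strains). This one passed with quantile normalization (adjusted p = 0.018) and in a fit on the 2 groups alone (adjusted p = 0.0143). In each of the media without leucine, uracil or histidine 1 of 3 arrays carried signal of other pools, and without such arrays the scores were 2.41 (adjusted p = 0.00339), 1.98 (adjusted p = 0.0196) and 1.47 (adjusted p = 0.108). Leucine, uracil and histidine are made with genes that pHLUM supplies. Methionine is another, and without it RSM28 had 0.27, 0.11 and 0.60 (0.27 ± 0.25, 0.17% of all strains). In the 8 other dropout media its median scores lay between -0.34 and 0.07. In MM it had a score of 0.21 ± 0.29 in YKO_aux_, where the medium was supplemented, and -0.25 ± 0.60 in BC_prot_. The call without uracil was lost (adjusted p = 0.0835) without replicate 2 of that medium.

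In MM the members of PB_prot_ as a group had a median score of 0.63 against -0.12 over all strains, with 1 of 17 called. Of the 17 members, 10 had an unadjusted p under 0.05, 8 of them with scores between 0 and 1. Without leucine, limma's unadjusted p was under 0.05 for 8 of the 17. The share of all strains at that unadjusted level is not given, here or for the other comparisons, so no result about the members is read from these counts. In MM RSM19 had 0.74 ± 0.15 (n = 4, limma adjusted p = 0.00164), MRP1 0.63 ± 0.23, MRPS8 0.75 ± 0.33, MRP17 0.86 ± 0.38 and MRP4, the counterpart of S2, 0.82 ± 0.24. RSM23, the counterpart of mammalian DAP3, had 1.33 ± 1.09 (adjusted p = 0.0899) and was called without MM replicate 2 and with the replicate number as a block. Other lists in MM of PB_prot_ had medians of 0.58 (aminoacyl-tRNA synthetases), 0.43 (translation factors), 0.32 (respiratory chain and ATP synthase), 0.25 (large subunit) and 0.07 (activators). Of the large subunit, 3 of 29 strains were called there. In YKO_aux_ the median of the members in MM was 0.17 and in BC_prot_ -0.14.

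**Figure D5:**
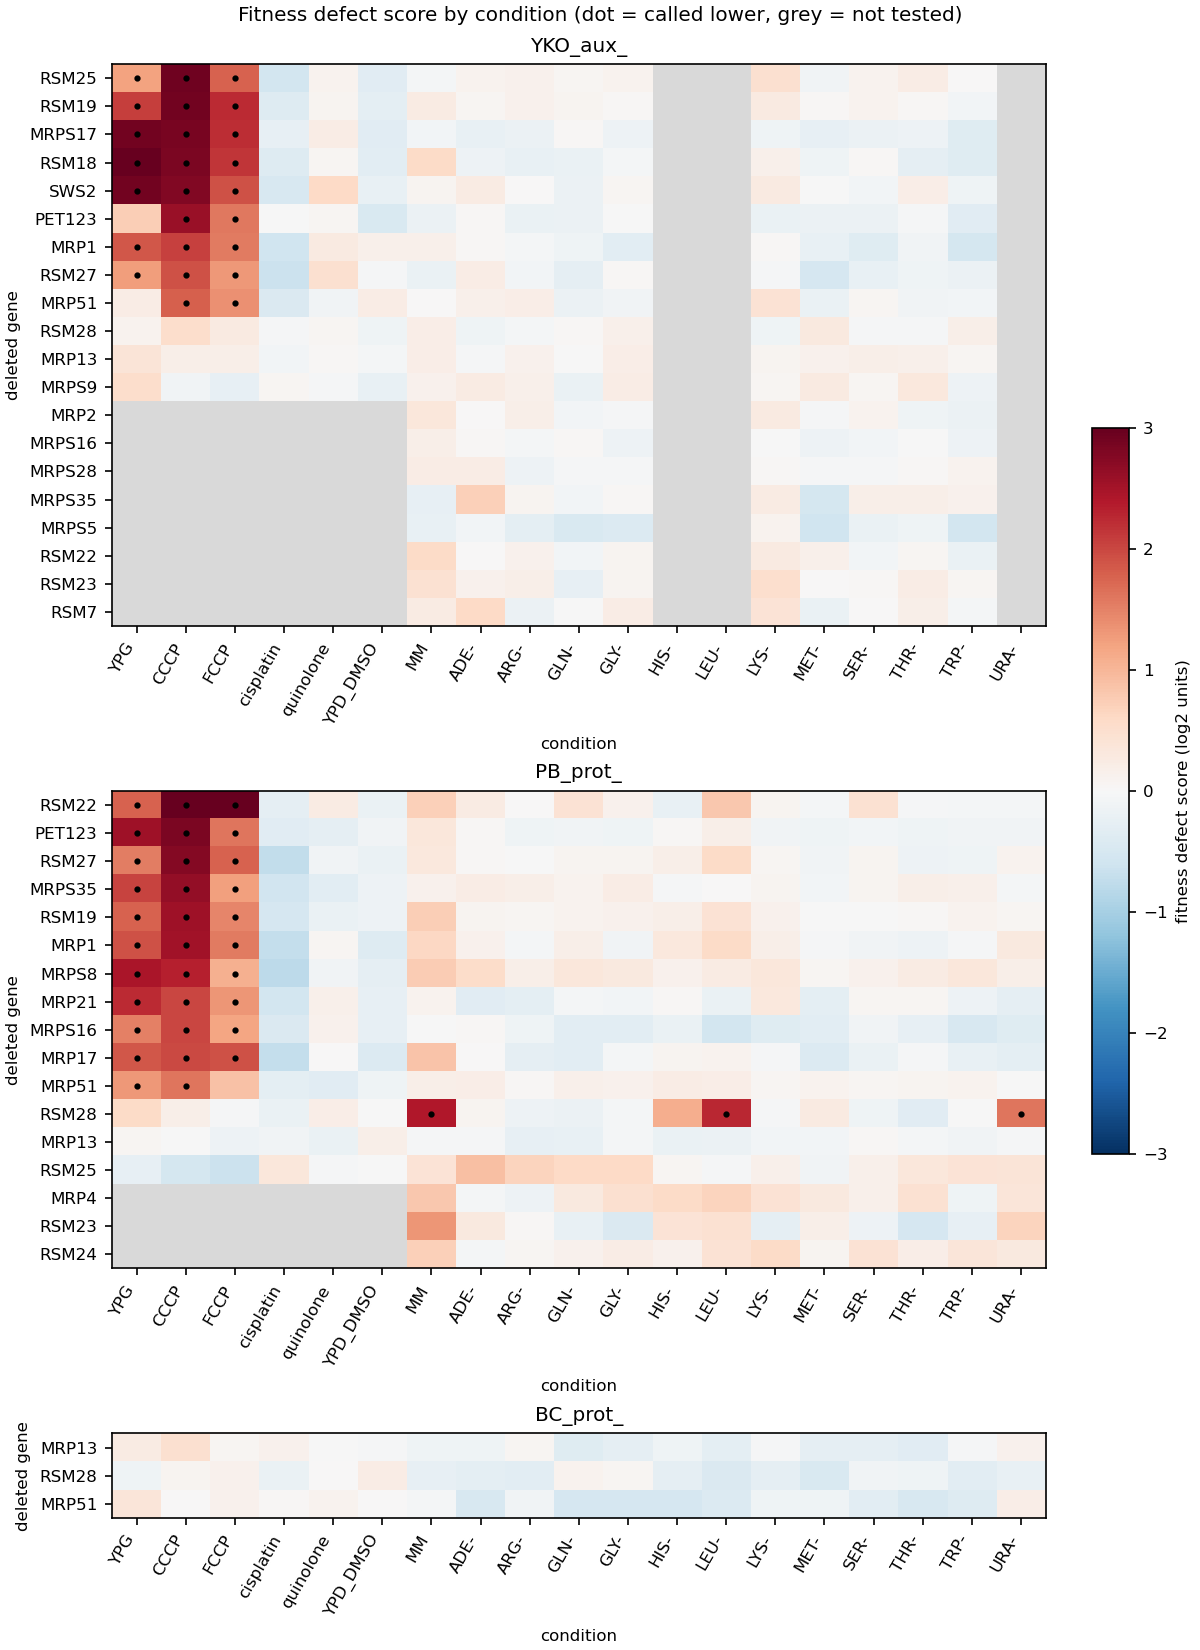
Fitness defect score (log2 units, colour) of every tested member (rows) in every condition (columns) in the 3 collections; dots mark members called lower and grey cells were not tested. Most calls stood in the columns of YPG, CCCP and FCCP in YKO_aux_ and PB_prot_, and outside them stood the 3 calls of RSM28 in PB_prot_ (MM, without leucine and without uracil).

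The pools were also hybridised before growth (5 arrays per collection). These arrays were normalized as batches of their own, so that time and batch cannot be told apart, and each tag is given as a percentile within its array, with no test. In YKO_aux_ the median percentile of 33 member tags was 89.8 before growth, 62.5 in YPD and 72.3 in SC, and 29 of the 33 stood lower in YPD than before growth. For 18 of the 33, all 8 YPD arrays were below all 5 arrays before growth. Over all 7387 tags present in SC, 35% stood lower in YPD and 11.1% had no overlap in this direction. RSM23 went from 92.6 to 50.0 (mean percentile, downtag) and SWS2 from 95.4 to 62.6 (uptag), while MRP13 (95.4 and 98.4, downtag), RSM28 (42.4 and 54.9) and MRPS9 (39.2 and 41.4) did not stand lower. Single YPD arrays ranged from 5.0 to 77.4 for RSM23 and from 24.3 to 82.6 for SWS2. In SC these tags stood at 72.3 and 76.9. Of the 8 YPD arrays of YKO_aux_, 4 carried signal of other pools, while none of its SC arrays or arrays before growth did. The part of this signal in the lower YPD percentiles was not tested. In PB_prot_ the medians over 23 tags were 62.5 before growth, 57.04 in YPD and 69.3 in SC. Of these tags, 15 of 23 stood lower in YPD (40.9% of all tags) and none had all YPD arrays below all arrays before growth (4.35% of all tags). In BC_prot_ the medians over 4 tags were 76.1, 78.6 and 75.6, with 3 of 4 lower in YPD (46% of all tags) and 0 without overlap (5.73% of all tags).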

How the data were processed

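The authors deposited log2 values of the TAG4 arrays after their own normalization (their methods name scaling of uptags and downtags to their median across the arrays of a set, then ComBat). The labels give 9 normalization batches, and each of the 6 sets used for tests is 1 batch; whether ComBat had been applied was not stated for the deposited values. Here, per set, presence was set with a 2-component mixture (posterior 0.5), of a strain's passing tags the one least variable (SD over mean) on control arrays was used, and limma (version 3.58.1, in R 4.3.3) was fitted with 1 mean per group. The study's methods ask that every tag passes and compare cisplatin with YPD and water; here 1 passing tag was enough and the control of cisplatin was YPD, since the labels name no water control. CCCP, FCCP and the quinolone were compared with YPD with DMSO. MM with uracil (1 array) was not tested. The members and gene lists were chosen with earlier results of these data known. Array values are printed for the 5 called members with the largest scores per collection and for members not called in YPG; other lists are given as counts with at most 3 named genes. Replicate numbers paired the arrays (3 or more pairs, every correlation of deviations over 0.1) in 8 of 10 comparisons of YKO_aux_ and 12 of 13 of PB_prot_ in SC-based media, in 1 of 13 of BC_prot_, and in none in rich medium; the pairing comes from the data. The fits were checked on simulated data. Alternatives were the presence rules, the tag, quantile normalization, the groups in the fit, a replicate block, an FD minimum of 1.5, a pooled control, leaving out each array, and, chosen after seeing the data, leaving out arrays with signal of other pools and, for differences between collections in YPG, each YPD array. No tag sequence was used here.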

Additional observations from a re-analysis of the deposited data

Results flagged for a closer look

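In 3 of 75 groups of 4 to 10 arrays examined for single members, 1 array stood far from the others, where chance gives about 1 in 20 groups. They were MRP13 in BC_prot_ on YPG replicate 2 (10.495), MRPS16 in PB_prot_ on YPD replicate 1 (9.40) and RSM18 in YKO_aux_ on YPD replicate 8 (7.24). None of 16 group medians over the tested members stood apart in this way (0 of 16).

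The response of 4 members differed between collections by a test of the difference itself (limma with Benjamini-Hochberg adjustment). PB_prot_ minus YKO_aux_, the FD score of RSM25 differed by -1.48 in YPG, -3.23 in CCCP and -2.27 in FCCP, that of PET123 by 1.71 and that of MRP51 by 1.37 in YPG. BC_prot_ minus YKO_aux_, MRP51 differed by -1.90 in CCCP and -1.44 in FCCP. BC_prot_ minus PB_prot_, MRP51 differed by -1.14 in YPG and -1.62 in CCCP, and RSM28 by -0.73 in YPG. As given above, the difference of PET123 set the uptag in YKO_aux_ against the downtag in PB_prot_, and it was lost without YPD replicate 8 of YKO_aux_. That of RSM28 was lost without any 1 of 11 of 18 control arrays. The YPG differences from YKO_aux_ rest on 2 YPG arrays that carry signal of other pools.

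Of the member tags that were not used in rich medium, 6 were flagged. Their mean was more than 1 log2 unit higher in YPG than in YPD, and their lowest YPG array lay above the YPD median. In all 6 the YPG arrays overlapped the YPD arrays, which spread widely. They are exceptions: the mean was higher in YPG for 13 of 44 unused tags in YKO_aux_, 19 of 42 in PB_prot_ and 21 of 53 in BC_prot_. The downtag of RSM26 averaged 9.12 in BC_prot_ (7.74 in YPD, arrays from 6.41 to 9.62). It averaged 9.07 in PB_prot_ (7.98, from 6.60 to 9.39) and 9.26 in YKO_aux_ (7.95, from 6.11 to 10.18). The uptag of MRP1 in BC_prot_ averaged 9.53 (7.63 in YPD, from 5.35 to 9.72). In YKO_aux_ the downtag of MRP4 averaged 7.17 (5.94 in YPD, from 4.77 to 7.66) and that of RSM24 7.73 (6.53, from 5.31 to 7.92). Both YPG arrays of that pool carried signal of other pools.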

How the results depend on the processing

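No direction of a call turned. For the settings below, the shares of all strains called are not given, so the counts cannot be set against them. With presence set by the mean of the control arrays, the members called in YKO_aux_, of 21 tested, numbered 14 in YPG, 17 in CCCP and 15 in FCCP. With no presence filter they numbered 15, 18 and 16, and without arrays with signal of other pools (chosen after seeing the data) 16 in CCCP and 16 in FCCP. A fit on the YPG and YPD arrays alone called 4. In PB_prot_, requiring every tag left 3 called in each of YPG, CCCP and FCCP and 0 in the SC-based media, an FD minimum of 1.5 left 5 in FCCP, and the SC-based media gave 5 calls by the mean and 6 with no filter. Requiring every tag left 0 members that differed between BC_prot_ and YKO_aux_ in CCCP and 0 in FCCP, and between BC_prot_ and PB_prot_ 0 in YPG and 0 in CCCP; MRP51 was then not tested. Without arrays with signal of other pools 2 members differed between PB_prot_ and YKO_aux_ in FCCP and 0 between BC_prot_ and PB_prot_ in YPG. With no presence filter 5 members were called higher in BC_prot_ without threonine (MRP1, MRP17, RSM18, RSM22 and SWS2), where both arrays carry such signal.

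With the replicate number as a block, the pairing left 0 members that differed between BC_prot_ and YKO_aux_ in FCCP and 1 between BC_prot_ and PB_prot_ in YPG, added MRP51 in FCCP (11 called) and RSM23 in MM (4 calls in SC-based media) in PB_prot_, and kept all other counts.

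Leaving out each array in turn gave 5 to 15 called members in YKO_aux_ in YPG, 9 to 16 in CCCP and 9 to 15 in FCCP, each highest without YPD replicate 8. In PB_prot_ it gave 11 to 12, 11 to 12 and 9 to 10, and 2 to 5 calls in the SC-based media, 5 without SC replicate 3 (RSM7 in MM and without leucine were added) and 4 without SC replicate 4 (RSM22 in MM was added). Members that differed between PB_prot_ and YKO_aux_ numbered 1 to 3 in YPG and 1 to 2 in CCCP, between BC_prot_ and YKO_aux_ 0 to 1 in FCCP, and between BC_prot_ and PB_prot_ 0 to 2 in YPG (YPD arrays left out as well, chosen after seeing the data). Treatment means below the presence threshold bound how far a strain fell, and groups of 2 or 3 arrays limit every difference.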
